A study of Mus musculus and Rattus norvegicus with 32 samples.

Results

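The genes described here are 51 genes of glucose use: the glucose transporters, the enzymes of glycolysis, the enzymes and carriers that handle lactate, the gate through which pyruvate enters the mitochondrion, the main enzymes of glycogen turnover and the tricarboxylic acid (TCA) cycle. They were chosen by gene symbol from a list. No threshold on measured values was applied, but earlier results of these data were known when the list was made. The mouse tables held 51 rows under 50 of these symbols among 55487 genes, because Aldoa is listed on 2 rows and Gpi is listed as Gpi1. Of these rows, 48 passed the filter on low counts in each mouse comparison. Fbp1, Aldoc and the second Aldoa row did not, with at most 8 counts in any mouse library. The rat table held 47 of the genes among 32883, and 45 passed the filter. Fbp1 and Fbp2 reached at most 11 counts there, and Gapdh, Ogdh and Fh1 have no row under those symbols.

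The study asked what METTL5, the methyltransferase that places N6-methyladenosine on 18S ribosomal RNA, does in the heart and in heart muscle cells. RNA of 32 libraries was sequenced, 4 in each of 8 groups, and each comparison was made within its own table. At 1 month of age, control hearts were compared with hearts labelled Mettl5-KO, a deletion in the whole body. At 3 months of age, control hearts were compared with hearts labelled Mettl5-cKO in their titles and Mettl5-KO in their genotype. In the Mettl5-cKO mice the floxed exons 2, 3 and 4 of Mettl5 are removed by Cre recombinase under the Myh6 promoter, which is active in cardiomyocytes, so that other cells of the heart keep the gene. A further table held control and Mettl5-cKO hearts taken 4 weeks after transverse aortic constriction (TAC), a narrowing of the aorta that puts the left ventricle under pressure. These hearts carry the label 3 months as well, and both of their groups had the surgery. All mice were C57BL/6. The fourth table held neonatal rat ventricular myocytes (NRVMs), isolated from Sprague Dawley rats on postnatal day 2 and pre-plated to remove fibroblasts. They were infected with an adenovirus carrying GFP (AdGFP) or METTL5 (AdMettl5, a virus that carries the human coding sequence), and both groups received phenylephrine (PE), an adrenergic agonist that makes cardiomyocytes grow, at 20 μM for 24 h.

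Glucose enters a cardiomyocyte through GLUT1 (Slc2a1), the transporter of fetal and growing cells, and GLUT4 (Slc2a4), the insulin-responsive transporter of adult muscle. Hexokinase traps it as glucose 6-phosphate, phosphofructokinase commits it to glycolysis, and the pyruvate formed is reduced to lactate or carried into the mitochondrion, where pyruvate dehydrogenase turns it into acetyl-CoA for the TCA cycle. The healthy adult heart draws most of its energy from fatty acids, and several glycolytic steps are run by different isoforms in fetal and adult muscle, with HK1, GLUT1 and ENO1 in growing cells and HK2, GLUT4 and ENO3 in mature striated muscle.

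Total counts were between 14324700 and 21804907 per library. Mettl5 itself, counted over the whole gene and not over the deleted exons, did not separate the genotypes in the hearts. It was at 5.12 ± 0.665 CPM (counts scaled to a common library size, SD, n = 4) in 1-month control hearts and 5.97 ± 0.807 in hearts labelled Mettl5-KO, at 7.36 ± 0.554 and 6.51 ± 0.731 at 3 months, and at 6.75 ± 0.752 and 6.59 ± 0.764 after TAC. The directions below are therefore those of the labelled groups. In NRVMs Mettl5 was at 17.0 ± 0.774 CPM with AdGFP and 21.2 ± 1.76 with AdMettl5 (adjusted p = 0.00295), although reads of a human insert need not be counted for the rat gene. Cardiomyocyte markers were high in all groups, with summed levels of at least 21548 CPM in every heart and 13686 CPM in every NRVM library. Among the 1-month control hearts, libraries 1 and 3 stood apart. They held the lowest and the highest share of mitochondrial counts (33.7% and 48.1%) and the extremes of the summed red blood cell markers (461 and 4569 CPM).

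In the unstressed 3-month control hearts the levels per kilobase of annotated exon followed the pattern of adult muscle. The length used joins all annotated exons of a gene (13401 bases for Pfkp). It can exceed that of any single transcript, which lowers the value of such a gene. Aldoa, the muscle aldolase, was the highest member at 667 ± 47.4 CPM per kilobase of exon (SD, n = 4), followed by Ldhb, the heart subunit of lactate dehydrogenase, at 575 ± 33.3. Idh2, the mitochondrial NADP-dependent isocitrate dehydrogenase, was at 466 ± 45.5, Eno3 at 452 ± 30.7 and Pgam2, the muscle phosphoglycerate mutase, at 424 ± 64.2, and these 3 lay within each other's spread. At the other end were Slc16a3, the lactate exporter MCT4, at 0.389 CPM per kilobase, Pfkfb3 at 1.22, the platelet-type phosphofructokinase Pfkp at 2.88 and Slc2a1 at 3.08. Slc2a4 stood at 76.4 and the muscle phosphofructokinase Pfkm at 159 on the same scale.

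At 1 month, no member differed between Mettl5-KO and control hearts at an adjusted p under 0.05 (the quasi-likelihood test of edgeR, Benjamini-Hochberg adjusted over all 16329 genes tested, as for every adjusted p below). Over all genes 0.00612% passed. One gene, Eno1, had an unadjusted p under 0.05, where 4.57% of all genes did. Eno1, the enolase found in most tissues, was at 54.1, 60.2, 51.9 and 54.6 CPM in controls and at 67.5, 62.0, 64.6 and 70.01 CPM in Mettl5-KO hearts, a log2 fold change of 0.26 ± 0.0907 (SE, adjusted p = 0.973). It was the only member whose groups did not overlap, against 3.01% of all genes. The median log2 fold change of the members was 0.14 against -0.0067 over all genes, and 37 of the 48 lay above 0, as did 48.6% of all genes.

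The entry and branch points at 1 month overlapped between the groups. GLUT1 (Slc2a1) was at 13.8, 7.75, 6.70 and 7.96 CPM in controls and at 10.9, 9.95, 10.6 and 8.99 CPM in Mettl5-KO hearts, and GLUT4 (Slc2a4) at 167, 189, 163 and 177 against 189, 184, 185 and 183. The Mettl5-KO hearts lay close together for both transporters, while the controls of Slc2a1 spread on either side of them and those of Slc2a4 reached from below them up to their level. Hk1 was at 79.4, 78.4, 63.7 and 78.5 CPM against 85.7, 75.8, 93.6 and 89.8, and Hk2, the insulin-responsive hexokinase, at 58.6, 92.4, 84.1 and 92.9 against 84.4, 79.3, 94.3 and 103. For phosphofructokinase, Pfkm was at 303, 351, 232 and 349 CPM against 327, 333, 387 and 395, and Pfkp at 48.6, 41.0, 34.2 and 45.7 against 41.7, 38.3, 48.0 and 45.7. Control library 3 was the lowest of the 8 for Hk1, Pfkm and Pfkp, and control library 1 for Hk2.

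Lower glycolysis showed the same spread of controls at this age. Gapdh was at 521, 575, 371 and 484 CPM in controls and 445, 486, 546 and 564 in Mettl5-KO hearts. The pyruvate kinase gene Pkm was at 243, 404, 296 and 359 CPM against 339, 348, 390 and 437. Of the lactate dehydrogenase subunits, Ldha was at 226, 244, 179 and 244 against 244, 252, 260 and 289, and Ldhb at 646, 614, 429 and 616 against 536, 597, 657 and 617. Each of these pairs of groups overlapped, Ldha only through its shared value near 244 CPM. Pdk4, the kinase that shuts pyruvate dehydrogenase when fatty acids are burned, was at 53.3, 54.0, 60.8 and 83.8 CPM against 15.4, 47.6, 69.5 and 86.1, and the first Mettl5-KO heart was the lowest of all. Pdha1, the catalytic subunit of pyruvate dehydrogenase, was at 194, 239, 186 and 210 CPM against 204, 226, 248 and 276. Citrate synthase (Cs) was at 427, 674, 480 and 597 CPM against 575, 633, 631 and 715, and Ogdh, a subunit of the oxoglutarate dehydrogenase complex, at 441, 618, 475 and 601 against 489, 572, 691 and 716. For both TCA enzymes the lowest libraries were controls 1 and 3, the libraries that stood apart above.

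At 3 months, again no member passed the test, where 0.0732% of 16391 genes did. The members below 0 were 34 of 48, with a median log2 fold change of -0.06 against 0.00071 over all genes. Of all genes 49.7% lay below 0. With library sizes left unscaled, 26 of the 48 members lay below 0. Of the 4 members with an unadjusted p under 0.05 (7.05% of all genes), Slc16a1, the lactate and pyruvate transporter MCT1, had a log2 fold change of 0.31 ± 0.136. The other 3 were negative and belong to the fructose bisphosphate node, the pair of opposing steps at which the flow through glycolysis is set. With 4 of 48 members the count is close to the share over all genes, and no pattern is read from it. Pfkfb1 had a log2 fold change of -0.78 ± 0.232 (adjusted p = 0.446), and its gene product makes and breaks fructose 2,6-bisphosphate, the strongest activator of phosphofructokinase. Pfkfb2, the isoform abundant in heart, was at 48.7 ± 4.91 CPM (SD, n = 4) in controls and 39.8 ± 2.16 in Mettl5-cKO hearts, a log2 fold change of -0.29 ± 0.0926 (adjusted p = 0.499). Fbp2, the muscle fructose bisphosphatase that opposes phosphofructokinase, was at 16.5 ± 3.14 and 12.7 ± 1.25 CPM (log2 fold change -0.38 ± 0.141, adjusted p = 0.613). The groups did not overlap for Eno1, which was higher in the Mettl5-cKO hearts, nor for Pfkfb2 and Idh3b, which were lower, and 4.23% of all genes had no overlap.

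Glucose uptake and phosphorylation at 3 months overlapped between the genotypes. Slc2a1 was at 13, 10.0, 9.43 and 10.7 CPM in controls and 11.6, 13.5, 14.1 and 9.86 CPM in Mettl5-cKO hearts, and Slc2a4 at 314, 249, 229 and 271 against 259, 233, 260 and 229. Hk1 was at 110, 95.1, 83.0 and 115 CPM against 122, 122, 127 and 102, so that 3 of the 4 Mettl5-cKO hearts were above every control. Hk2 was at 176, 122, 118 and 154 CPM against 159, 119, 126 and 111. Pfkm was at 588, 496, 483 and 555 CPM against 587, 505, 561 and 502, and Pfkp at 31.8, 43.9, 36.7 and 42.1 against 42.8, 41.8, 44.4 and 36.7. These ranges covered each other almost fully for both phosphofructokinases.

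Further down the pathway the 3-month groups also overlapped. Gapdh was at 644, 706, 605 and 665 CPM against 603, 580, 652 and 684, Pkm at 633, 555, 508 and 566 against 623, 547, 582 and 531, and Ldha at 311, 320, 310.5 and 300.3 against 284, 286, 317 and 343. Ldhb was at 838, 951, 884 and 939.9 CPM in controls and 784, 795, 879 and 893 in Mettl5-cKO hearts, the 2 lowest values being Mettl5-cKO. Pdk4 ranged most widely of these genes, at 114, 105, 77.2 and 155 CPM against 235, 143, 169 and 71.3. Pdha1 was at 605, 428, 372 and 555 CPM against 607, 507, 559 and 384, Cs at 911, 744, 689 and 865 against 926, 765, 858 and 708, and Ogdh at 1511, 1083, 1046 and 1330.5 against 1350, 1122, 1281 and 917. For Pdha1, Cs and Ogdh both genotypes held high and low libraries, and the fourth Mettl5-cKO heart was near the bottom of each range. Among the 13 TCA genes 12 lay below 0 (9 with library sizes left unscaled), with a median log2 fold change of -0.08, and none passed the test. Summed cardiomyocyte markers were at 43258 to 47172 CPM in these controls and 38515 to 43009 CPM in Mettl5-cKO hearts. Fibroblast markers summed to 416 to 562 against 513 to 758 CPM. No marker of either list was called, and their part in the members' values was not tested.

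**Figure D1:**
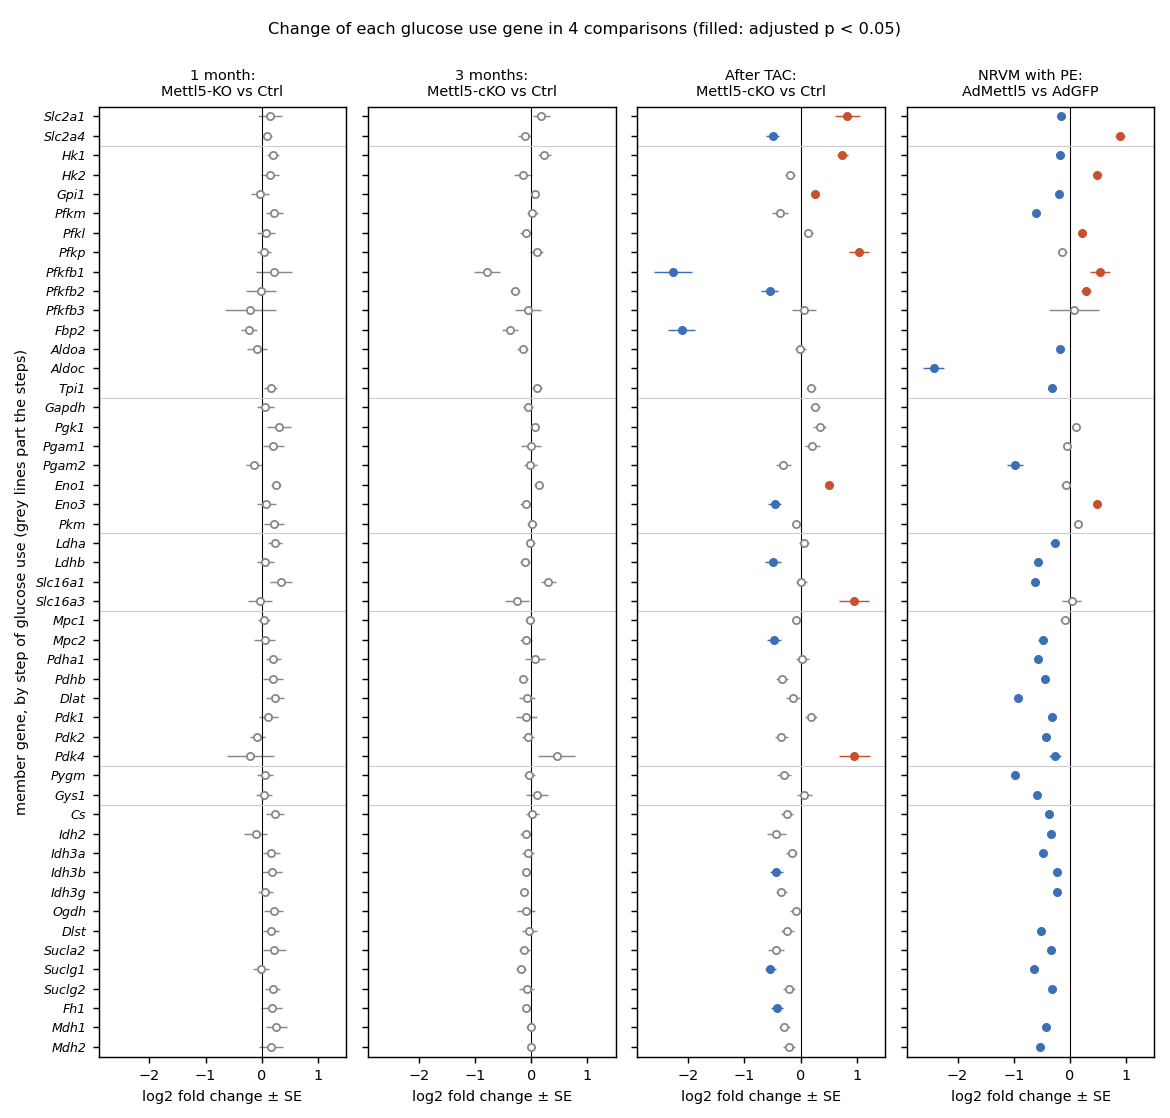
Log2 fold change and standard error (horizontal axis) of each tested member (vertical axis, grouped by step of glucose use) in the 4 comparisons, 1 panel each, with filled symbols for an adjusted p under 0.05 (n = 4 libraries per group). No symbol is filled at 1 month or at 3 months, 17 of 48 are filled after TAC and 37 of 45 in NRVMs.

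After TAC, 17 of the 48 members (35.4%) differed between Mettl5-cKO and control hearts, where 12.7% of 16340 genes did. 7 were higher in the Mettl5-cKO hearts: Slc2a1, Hk1, Gpi1, Pfkp, Eno1, Slc16a3 and Pdk4. The 10 lower genes were Slc2a4, Pfkfb1, Pfkfb2, Fbp2, Eno3, Ldhb, Mpc2, Idh3b, Suclg1 and Fh1. Of all genes 6.57% were called higher and 6.1% lower. The median log2 fold change was -0.18 over the members and -0.0035 over all genes, and 30 of 48 members lay below 0 against 50.6% of all genes. At an unadjusted p under 0.05, 28 members passed against 31% of all genes, and 3 called members (Pfkp, Pfkfb1 and Fbp2) had an absolute log2 fold change over 1 against 2.9% of all genes. The split depends on how libraries are scaled: with library sizes left unscaled, a setting that moved the median over all genes by 0.147, 11 members were called higher and 6 lower, and the calls of Slc2a4, Eno3, Pfkfb2 and Fh1 were lost. Of all genes 15.8% were called in that setting. The groups did not overlap for 17 members, 8 higher and 9 lower, and the corresponding share of all genes was 18.6%. For groups without overlap the exact two-sided permutation test always gives 0.0286, the smallest p that 4 against 4 libraries allow. That value is therefore no further support for those 17. Of the called genes, Ldhb, Fh1 and Pdk4 overlapped.

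After TAC, GLUT1 and HK1 were higher and GLUT4 lower in Mettl5-cKO than in control hearts, while HK2 did not pass the test. Below, a rise, fall or change after TAC is that of Mettl5-cKO against control hearts, both operated. GLUT1 (Slc2a1) was at 12.2, 8.12, 9.11 and 6.79 CPM in control TAC hearts and 21.7, 17.5, 12.8 and 12.4 CPM in Mettl5-cKO TAC hearts, and rose by a log2 fold change of 0.83 ± 0.22 (adjusted p = 0.0386). All Mettl5-cKO values were above all controls, although the lowest of them came close to the highest control. The Slc2a1 call stood in 2 of the 8 fits with 1 library left out and was lost without the filter on low counts. GLUT4 (Slc2a4) was at 267, 220.4, 217 and 246 CPM in controls and 146, 150.2, 177 and 201 CPM in Mettl5-cKO hearts, and fell by 0.50 on the log2 scale (SE 0.118, adjusted p = 0.0285), with no overlap. That call was lost with library sizes left unscaled (log2 fold change -0.36, adjusted p = 0.0514) and without the filter on low counts, and stood in 2 of the 8 fits with 1 library left out. Hk1 rose from 79.6, 79.7, 75.9 and 78.6 CPM to 149.5, 137, 127 and 113 CPM, a log2 fold change of 0.74 ± 0.0903 (adjusted p = 0.00481). The controls lay close together, and the lowest Mettl5-cKO heart was well above them. Hk2 was at 124, 111, 99.3 and 111 CPM against 104, 99.9, 87.1 and 98.1 (log2 fold change -0.20 ± 0.0879, adjusted p = 0.165), with overlap. Gpi1, glucose phosphate isomerase, was at 392 ± 4.22 CPM (SD, n = 4) in controls and 469 ± 29.0 in Mettl5-cKO hearts (log2 fold change 0.26 ± 0.0718, adjusted p = 0.0443). Its call stood in 1 of the 8 fits with 1 library left out.

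At the phosphofructokinase step, Pfkp was at 46.2, 36.6, 36.9 and 39.9 CPM in control TAC hearts and 106, 90.3, 75.1 and 57.2 CPM in Mettl5-cKO TAC hearts, a rise of 1.04 ± 0.174 on the log2 scale (adjusted p = 0.011) without overlap. The muscle isoform Pfkm was at 498, 496, 410 and 537 CPM against 295, 377, 374 and 462 (log2 fold change -0.37 ± 0.138, adjusted p = 0.106). Only the fourth Mettl5-cKO heart of Pfkm fell inside the range of the controls. Pfkl, the liver isoform, was at 61.1 ± 4.59 and 67.1 ± 5.08 CPM (adjusted p = 0.301).

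The bisphosphate node held the largest folds among the members. Fbp2 was at 13.3, 12.1, 12.9 and 13.5 CPM in control TAC hearts and 1.71, 2.37, 3.23 and 4.69 CPM in Mettl5-cKO TAC hearts, and fell by 2.11 on the log2 scale (SE 0.241, adjusted p = 0.00384, the smallest of the members). Pfkfb1 was at 9.12, 8.46, 5.72 and 7.13 CPM against 1.36, 0.547, 1.94 and 2.45, and fell by 2.28 (SE 0.336, adjusted p = 0.00782). Neither gene's groups overlapped, and both were low members in control hearts too. Pfkfb2 fell by 0.55 (SE 0.155), from 40.8 ± 3.79 to 27.9 ± 6.44 CPM (adjusted p = 0.0471). Pfkfb3, the inducible isoform, was at 6.30 ± 0.69 and 6.60 ± 2.30 CPM (adjusted p = 0.868). Aldoa was at 2025 ± 47.4 and 2022 ± 205 CPM, and Tpi1, triose phosphate isomerase, at 251 ± 25.0 and 285 ± 4.95 (adjusted p = 0.167, no overlap).

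The promoters of 4 members that changed after TAC are shown to give the sequence around the start of transcripts that moved in opposite directions, 2 of which rose (Slc2a1 and Pfkp) and 2 of which fell (Fbp2 and Ldhb). They run from 250 bases before to 50 bases after the start in RefSeq (GRCm38.p6), are written 5′ to 3′ on the strand of the gene, and have matches of the motifs listed after them in capitals on either strand. Slc2a1 is at chr4:119108495-119108794 (plus strand), Pfkp at chr13:6648722-6649021 (minus), Fbp2 at chr13:62858351-62858650 (minus) and Ldhb at chr6:142507908-142508207 (minus).
Slc2a1: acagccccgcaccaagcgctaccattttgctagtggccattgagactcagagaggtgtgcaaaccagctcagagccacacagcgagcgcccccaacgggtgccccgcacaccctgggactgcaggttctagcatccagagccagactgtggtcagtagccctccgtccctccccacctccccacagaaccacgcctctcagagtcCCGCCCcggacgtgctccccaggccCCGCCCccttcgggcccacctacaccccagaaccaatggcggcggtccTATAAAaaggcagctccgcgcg
Pfkp: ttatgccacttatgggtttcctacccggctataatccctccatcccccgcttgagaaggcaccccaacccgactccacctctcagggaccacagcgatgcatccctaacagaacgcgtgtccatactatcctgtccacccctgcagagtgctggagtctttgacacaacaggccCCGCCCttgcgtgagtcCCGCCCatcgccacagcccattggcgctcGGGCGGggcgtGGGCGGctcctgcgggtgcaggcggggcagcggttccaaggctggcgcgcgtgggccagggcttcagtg
Fbp2: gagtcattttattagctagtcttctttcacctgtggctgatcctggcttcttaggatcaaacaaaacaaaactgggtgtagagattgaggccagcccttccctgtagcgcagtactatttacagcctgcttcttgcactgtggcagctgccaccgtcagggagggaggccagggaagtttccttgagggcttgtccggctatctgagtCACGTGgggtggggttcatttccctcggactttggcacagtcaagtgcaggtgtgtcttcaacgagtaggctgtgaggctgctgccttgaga
Ldhb: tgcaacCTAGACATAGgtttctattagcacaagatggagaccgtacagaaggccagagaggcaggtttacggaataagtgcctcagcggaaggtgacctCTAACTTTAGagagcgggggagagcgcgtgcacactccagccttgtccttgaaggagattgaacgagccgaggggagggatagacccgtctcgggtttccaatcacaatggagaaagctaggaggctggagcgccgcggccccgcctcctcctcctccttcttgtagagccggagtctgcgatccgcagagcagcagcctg
The capitals mark the GC box GGGCGG (read as CCGCCC on the other strand), the TATA box TATAAA, the E-box CACGTG and a loose MEF2-like pattern. That pattern is CTA and TAG with any 4 bases between them. The middle bases were not limited to A or T, and both Ldhb matches hold G or C there. The Slc2a1 promoter held 2 GC boxes and 1 TATA box, that of Pfkp 4 GC boxes, that of Fbp2 1 E-box and that of Ldhb 2 MEF2-like patterns. In the RefSeq table, 73 promoters matched 48 members, and none was used for Idh3a and Slc2a4. A GC box was in 41 of the 73 (56.2%) and in 35.7% of all 32851 promoters, an E-box in 10 (13.7%) against 7.15%, a TATA box in 2 against 13.6%, the estrogen-related receptor motif AAGGTCA in 4 against 4.72% and the MEF2-like pattern in 2 against 3.69%. Of the promoters of members called higher after TAC, 6 of 10 held a GC box, and of those called lower 4 of 14. These are counts of promoters, in which a member with several, such as Pfkfb1, Pfkfb2 or Eno1, counts more than once. By gene, 34 of the 48 matched members had a GC box in at least 1 promoter and 8 an E-box. Both promoters with the MEF2-like pattern belong to members called lower. A match describes letters in the window, and whether a factor binds there was not tested.

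Lower glycolysis moved in both directions after TAC. Eno1 was at 60.1, 59.6, 60.4 and 60.8 CPM in controls and 95.4, 87.1, 81.3 and 79.0 CPM in Mettl5-cKO hearts, and rose by 0.51 ± 0.0746 on the log2 scale (adjusted p = 0.00781). The controls were nearly identical and no library of the groups overlapped. Its muscle counterpart Eno3 fell from 802 ± 31.0 to 584 ± 101 CPM, a log2 change of -0.46 ± 0.118 (adjusted p = 0.0356), also without overlap. The Eno3 call stood in 1 of the 8 fits with 1 library left out. It was lost with library sizes left unscaled and without the filter on low counts. Gapdh was at 783, 716, 710 and 713 CPM against 971, 890, 762 and 863 (log2 fold change 0.25 ± 0.091, adjusted p = 0.0933), and Pkm at 584, 546, 507 and 554 against 542, 517, 481 and 540 (adjusted p = 0.555). For Gapdh only the third Mettl5-cKO heart was below the highest control, whereas for Pkm the ranges ran through each other. Pgk1, phosphoglycerate kinase, was at 94.6 ± 15.4 and 119.9 ± 6.27 CPM (log2 fold change 0.34 ± 0.117, adjusted p = 0.0809) without overlap, and Pgam2 at 529 ± 62.8 and 428 ± 73.3 (adjusted p = 0.145).

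For lactate, Ldhb was at 824, 856, 786 and 899 CPM in controls and 499, 556, 533 and 793 CPM in Mettl5-cKO hearts, and fell by 0.50 on the log2 scale (SE 0.142, adjusted p = 0.0484). The fourth Mettl5-cKO heart lay inside the control range, and the other 3 were far below it. The Ldhb call stood in 1 of the 8 fits with 1 library left out and was lost without the filter on low counts. Ldha, the muscle subunit, was at 315, 309, 316 and 343 CPM against 383, 323, 321 and 312 (log2 fold change 0.06 ± 0.0859, adjusted p = 0.669). The exporter Slc16a3 rose by 0.94 ± 0.266, from 1.84 ± 0.259 to 3.54 ± 1.41 CPM (adjusted p = 0.0473), a low level throughout. Slc16a1 was at 138 ± 17.2 and 139 ± 8.58 CPM.

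**Figure D2:**
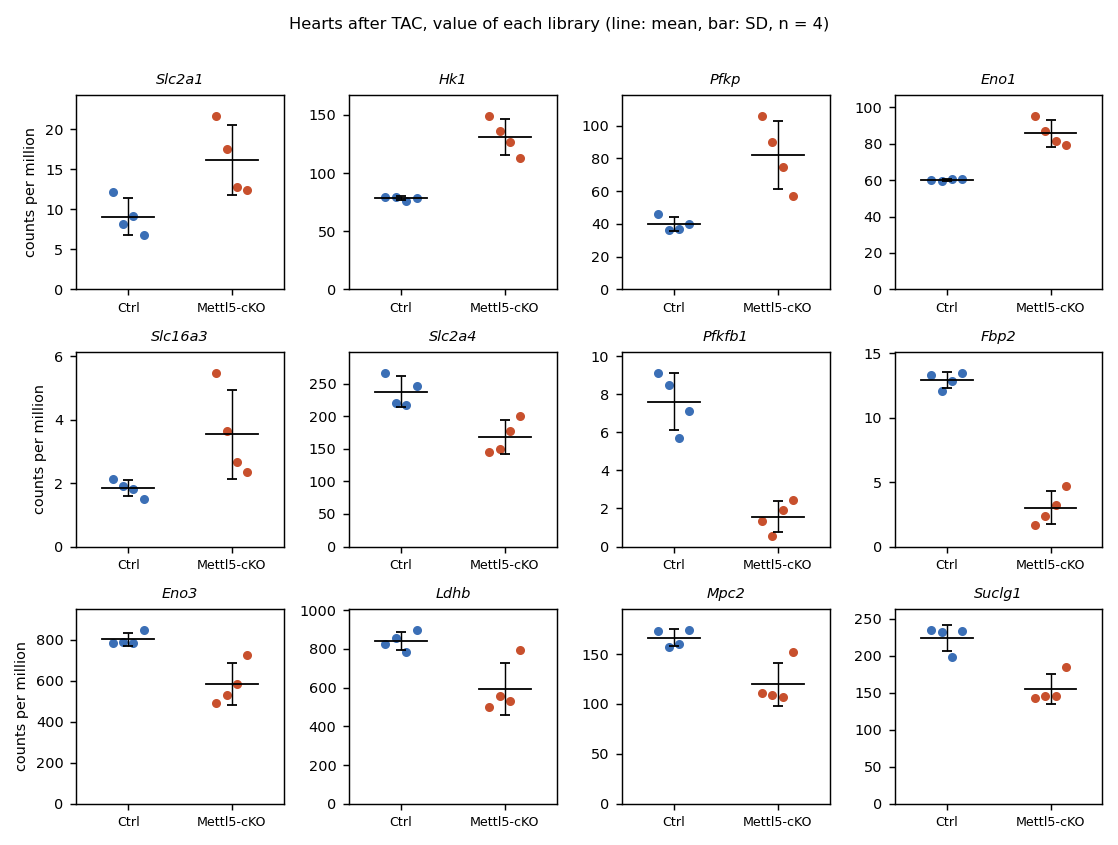
CPM (vertical axes, each starting at 0) of 12 members in the 4 control and 4 Mettl5-cKO hearts after TAC, with the mean and SD of each group. The Mettl5-cKO hearts lie above all controls for Slc2a1, Hk1, Pfkp, Eno1 and Slc16a3 and below all controls for Slc2a4, Pfkfb1, Fbp2, Eno3, Mpc2 and Suclg1, while 1 Mettl5-cKO heart of Ldhb overlaps.

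At the gate to the mitochondrion after TAC, Mpc2, a subunit of the mitochondrial pyruvate carrier, was at 173, 158, 160.2 and 174 CPM in controls and 111, 109, 107 and 152 CPM in Mettl5-cKO hearts, and fell by 0.47 on the log2 scale (SE 0.118, adjusted p = 0.0325). Its partner Mpc1 was at 194 ± 14.7 and 183 ± 2.09 CPM (adjusted p = 0.484). The Mpc2 call stood in 1 of the 8 fits with 1 library left out and was lost without the filter on low counts. Pdk4 was at 106, 132, 104 and 160 CPM in controls and 156, 333, 321 and 161 CPM in Mettl5-cKO hearts, and rose by 0.95 ± 0.273 (adjusted p = 0.0496). Mettl5-cKO hearts 2 and 3 carried this difference, and the other 2 lay at the level of the highest control. The Pdk4 call stood in 2 of the 8 fits with 1 library left out and was lost without the filter on low counts. Pdha1 was at 461, 432, 318 and 424 CPM against 413, 445, 409 and 405 (log2 fold change 0.03 ± 0.113, adjusted p = 0.874). Pdhb, the other subunit of the dehydrogenase core, was at 316 ± 42.6 and 251 ± 16.8 CPM (adjusted p = 0.0669), Dlat, the acetyltransferase, at 215 ± 40.7 and 196 ± 7.56 (adjusted p = 0.519) and Pdk2 at 286 ± 6.92 and 226 ± 39.0 (adjusted p = 0.0767). Neither glycogen gene passed the test: Pygm, muscle glycogen phosphorylase, was at 693 ± 29.0 and 564 ± 106 CPM, and Gys1, muscle glycogen synthase, at 67.4 ± 10.2 and 70.6 ± 9.14.

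All 13 TCA genes had a log2 fold change below 0 after TAC, with a median of -0.29 and a range from -0.54 to -0.09, and 3 passed the test. Of all genes 50.6% lay below 0 and 6.1% were called lower. With library sizes left unscaled 12 of the 13 lay below 0, the exception being Ogdh, and 2 passed. Suclg1, a subunit of succinyl-CoA ligase, was at 235, 232, 198 and 234 CPM in controls and 144, 146, 145 and 185 CPM in Mettl5-cKO hearts, and fell by 0.54 (SE 0.103, adjusted p = 0.0155) without overlap. Idh3b, a subunit of the NAD-dependent isocitrate dehydrogenase, fell by 0.43 (SE 0.112), from 467 ± 30.5 to 346 ± 53.9 CPM (adjusted p = 0.0362). Fh1, fumarate hydratase, fell by 0.42 (SE 0.111), from 223 ± 13.5 to 166 ± 26.5 CPM (adjusted p = 0.0381). Cs was at 785, 721, 593 and 739 CPM against 555, 614, 544 and 690.5 (log2 fold change -0.24 ± 0.113, adjusted p = 0.183), and Ogdh at 1168, 1110, 939 and 1106 against 965, 1092, 902 and 1106 (-0.09 ± 0.103, adjusted p = 0.598). Both of these overlapped between the groups. Idh3g was at 341 ± 14.1 and 269 ± 37.0 CPM (adjusted p = 0.0555) with no overlap, and Idh2 at 1320 ± 175 and 979 ± 225 (adjusted p = 0.108).

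**Figure D3:**
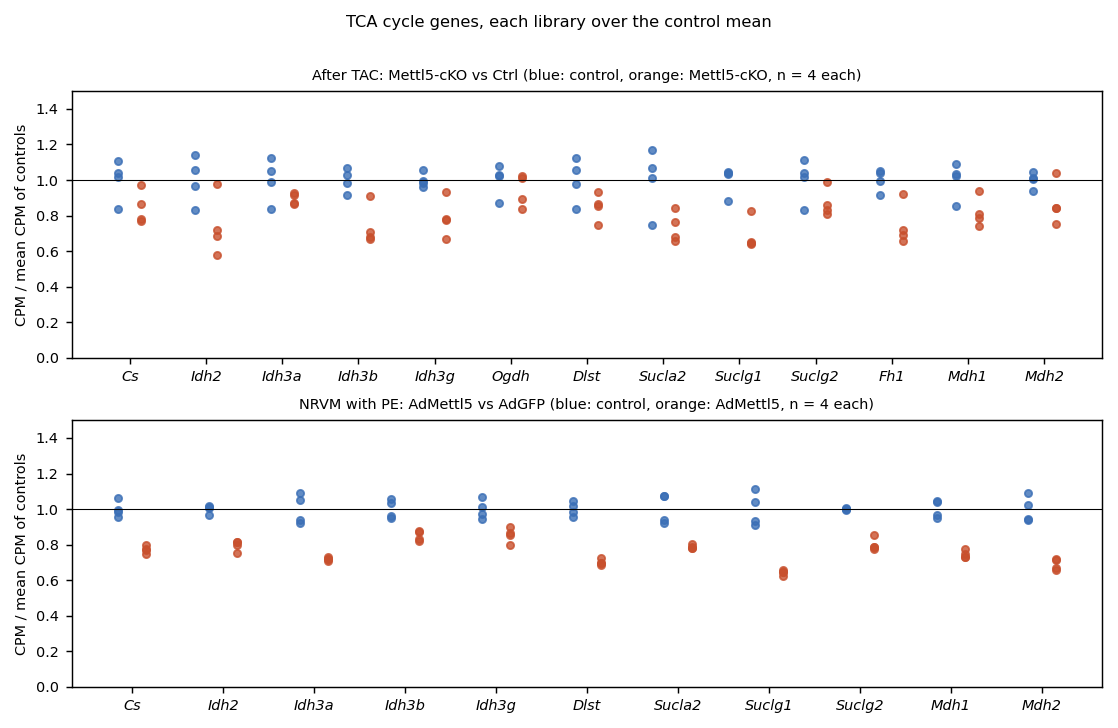
Level of each TCA gene in each library, as CPM divided by the mean of the control group (vertical axis), after TAC and in NRVMs. After TAC the fourth Mettl5-cKO heart stands above the other 3 for Suclg1 (185 against 144 to 146 CPM), and in NRVMs each gene lies lower with AdMettl5.

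Within a library the ratio of isoforms does not depend on how libraries are scaled. The log2 ratio of Slc2a1 to Slc2a4 was -4.74 ± 0.319 (SD, n = 4) in control TAC hearts and -3.41 ± 0.59 in Mettl5-cKO TAC hearts, a difference of 1.33. The same difference was 0.93 for Hk1 to Hk2, 1.39 for Pfkp to Pfkm, 0.98 for Eno1 to Eno3 and 0.51 for Pgam1 to Pgam2. For these 5 pairs all Mettl5-cKO libraries lay above all controls, and in each the isoform in the numerator is the one that is lower in adult muscle or the more widespread one. The ratios of Ldha to Ldhb (difference 0.58) and Slc16a3 to Slc16a1 (0.85) overlapped. At 3 months the difference was 0.29 for Slc2a1 to Slc2a4 and 0.23 for Eno1 to Eno3, both without overlap, and -0.60 for Slc16a3 to Slc16a1, also without overlap in the other direction. Hk1 to Hk2 differed by 0.38 at 3 months with overlap, and at 1 month every pair overlapped. These ratios were given as a description and not tested.

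**Figure D4:**
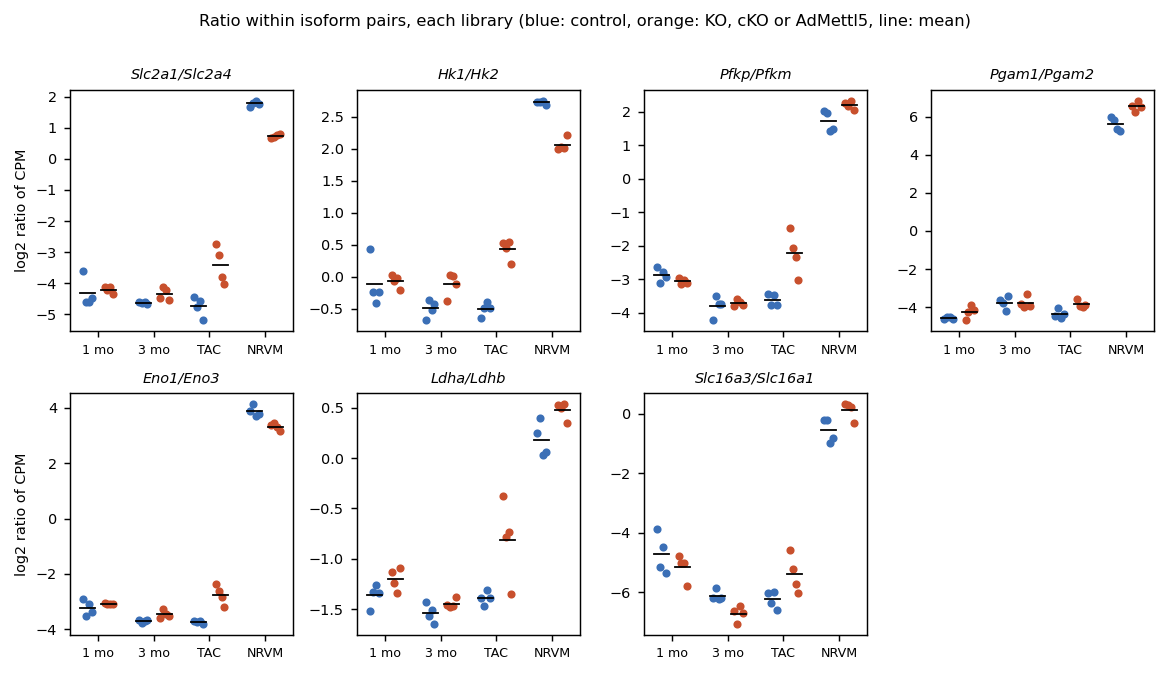
Log2 ratio of CPM between the isoforms of a step (vertical axis) in each library of the 4 comparisons, controls in blue and the other group in orange. After TAC 5 of the 7 ratios are higher in every Mettl5-cKO heart than in every control, and in NRVMs those of Slc2a1 to Slc2a4, Hk1 to Hk2 and Eno1 to Eno3 are lower and those of Pfkp to Pfkm and Pgam1 to Pgam2 higher in every AdMettl5 library.

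Markers of other cell types moved with these differences. In the TAC hearts 6 of 7 fibroblast markers rose, and their summed level was 762, 595, 726 and 575 CPM in controls and 2980, 2059, 2007 and 920 CPM in Mettl5-cKO hearts. Cardiomyocyte markers summed to 43339, 46467, 42951 and 47007 CPM against 33527, 31331, 31626 and 40397, and 3 of 9 fell. Of the endothelial markers 4 of 5 fell (599 to 704 against 397 to 538 CPM summed) and of the macrophage markers 1 of 5 rose. In RNA of whole hearts, fewer cells of a type and less RNA per cell cannot be told apart, and the part of these markers in the members' changes was not tested. The fourth Mettl5-cKO heart had the fewest fibroblast and the most cardiomyocyte counts of its group, and it lay nearest to the controls for Slc2a4, Hk1, Pfkp, Eno1, Fbp2, Ldhb, Suclg1 and Mpc2. Without that heart 27 members were called, 7 higher and 20 lower, and the share of all genes called went from 12.7% to 23.4%. With any other single heart left out between 5 and 9 were called, beside 2.88% to 9.56% of all genes: 5 without control 4 or without Mettl5-cKO heart 2, 6 without control 2, 7 without control 1, Mettl5-cKO heart 1 or Mettl5-cKO heart 3, and 9 without control 3. Fbp2, Pfkp, Hk1, Eno1 and Pfkfb1 were called each time. Over all 8 such fits Suclg1 was called in 6, Slc2a1, Slc2a4, Pfkfb2 and Pdk4 in 2, and the other called members in 1. Some counts may hold reads of other genes, since exons on the opposite strand overlap Hk1 (Hk1os), Slc2a1 (Gm12868), Pfkp (Pitrm1), Pfkfb1 (Apex2) and Idh3b (Nop56), and 26.0% of the 50-base stretches of Eno1 and 21.0% of those of Ldhb occur in other genes.

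Whether the genotype effect differed with TAC was tested by an interaction term over the 16 libraries of the 3-month and TAC tables. No member passed it, where 0.00586% of 17070 genes did, and 18 of 48 members had an unadjusted p under 0.05 (11.8% of all genes). Fbp2 had the smallest adjusted p (0.0935), with the genotype effect more negative after TAC by 1.72 ± 0.289 on the log2 scale. Pfkp (0.96 ± 0.224, adjusted p = 0.128) and Eno1 (0.39 ± 0.0972, adjusted p = 0.147) followed with more positive effects. The call thus stood after TAC and not at 3 months for these genes, but the difference between the conditions was not past the threshold. Without the fourth Mettl5-cKO TAC heart 11 members passed, and 3.91% of all genes. Between the control hearts of the same tables, TAC against 3 months, no member passed either (0.516% of all genes did), and 7 had an unadjusted p under 0.05 (17.6% of all genes). The smallest adjusted p was that of Pgam2 (0.0602), at 356 and 528 CPM, a log2 fold change of 0.57 ± 0.128. Hk1 was at 101 CPM in 3-month controls and 78.3 in TAC controls (-0.36 ± 0.112, adjusted p = 0.127), without overlap. Surgery, time and table cannot be told apart in that comparison.

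In PE-treated NRVMs more members were called than in the hearts, and most of them were lower with AdMettl5. 37 of 45 (82.2%) differed from AdGFP, 6 higher and 31 lower, where 52.8% of 15041 genes did, 27.1% higher and 25.7% lower. 1 called member, Aldoc, had an absolute log2 fold change over 1, against 5.85% of all genes. The higher genes were Slc2a4, Hk2, Pfkl, Pfkfb1, Pfkfb2 and Eno3. Pfkfb1 was low, with 18 to 32 counts per library (1.31 ± 0.188 and 1.89 ± 0.157 CPM, adjusted p = 0.0272). Of the 8 fits with 1 library left out, Pfkfb1 and Pfkl were called in 4 and Pfkfb2 in 6. The median log2 fold change was -0.31 over the members and -0.0022 over all genes. With library sizes left unscaled, a setting that moved that median by 0.135, 8 were called higher and 23 lower, beside 54.6% of all genes called. The AdGFP libraries held 17344430 to 18085339 counts and the AdMettl5 libraries 14324700 to 14642431. The groups did not overlap for 33 members, 5 higher and 28 lower, and for 48.4% of all genes.

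The muscle transporter GLUT4 and the muscle hexokinase HK2 rose in NRVMs, and the calls of GLUT1 and HK1, both lower, depended on how libraries were scaled. GLUT4 (Slc2a4) was at 46.5, 42.1, 36.0 and 39.8 CPM with AdGFP and 80.6, 82.2, 76.2 and 64.6 CPM with AdMettl5, a log2 fold change of 0.89 ± 0.0882 (adjusted p = 5.97e-06) without overlap. GLUT1 (Slc2a1) was at 149, 146, 131 and 136 CPM against 129, 134, 128 and 113, and fell by 0.16 (SE 0.06, adjusted p = 0.0443), with 1 AdMettl5 library inside the range of the AdGFP libraries. With unscaled library sizes its log2 fold change was -0.021 (adjusted p = 0.746), and it was called in 3 of the 8 fits with 1 library left out. Hk2 rose from 49.4, 51.4, 50.9 and 52.7 to 73.4, 72.2, 74.6 and 66.0 CPM (log2 fold change 0.49 ± 0.0507, adjusted p = 8.64e-06). Both hexokinases were free of overlap, Hk1 being at 328, 342, 342 and 338 CPM against 291, 293, 300.2 and 304 (-0.18 ± 0.0399, adjusted p = 0.00212). With unscaled library sizes Hk1 had a log2 fold change of -0.048 (adjusted p = 0.415). Pfkm was at 115, 119, 134 and 133 CPM with AdGFP and 83.0, 84.3, 77.2 and 85.4 with AdMettl5, and fell by 0.61 (SE 0.0595, adjusted p = 5.28e-06). Pfkp was at 472, 462, 363 and 373 CPM against 394, 382, 389 and 353 (-0.14 ± 0.084, adjusted p = 0.189). The first 2 AdGFP libraries of Pfkp stood above the other 2, a split that Slc16a3 shared (152, 153, 90.6 and 102 CPM).

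Aldoc, the brain-type aldolase, was at 30.1, 29.5, 49.9 and 45.8 CPM with AdGFP and 7.29, 8.05, 6.76 and 6.87 with AdMettl5, and fell by 2.42 (SE 0.182, adjusted p = 6.26e-07), the largest change of the members. Aldoa, the main aldolase, fell by 0.17 (SE 0.0546), from 1858 ± 111 to 1650 ± 52.1 CPM, a call that was lost with library sizes left unscaled (-0.035, adjusted p = 0.516). Eno3 rose by 0.48 ± 0.0546, from 49.7 ± 3.39 to 69.5 ± 1.84 CPM (adjusted p = 1.65e-05), whereas Eno1 was at 732 ± 85.2 and 694 ± 46.8 CPM (adjusted p = 0.44). Pgam2 fell by 0.98 (SE 0.138), from 9.13 ± 1.34 to 4.64 ± 0.766 CPM (adjusted p = 9.29e-05). Pkm was at 575, 581, 501 and 509 CPM against 623, 588, 623 and 560 (0.14 ± 0.0614, adjusted p = 0.0665), and Pgk1 at 472 ± 42.8 against 506 ± 7.63 (adjusted p = 0.193). Lower glycolysis thus held 1 gene higher, 1 lower and 4 that did not pass the test.

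Both lactate dehydrogenase genes fell in NRVMs. Ldhb was at 643, 582, 624 and 602 CPM with AdGFP and 411, 431, 407 and 409 CPM with AdMettl5 (log2 fold change -0.56 ± 0.0465, adjusted p = 1.26e-06), and Ldha at 764, 767, 635 and 625 against 592, 608, 589 and 521 (-0.27 ± 0.0777, adjusted p = 0.0106). Neither overlapped. The call of Ldha was lost with library sizes left unscaled (-0.14, adjusted p = 0.0792). The transporter Slc16a1 was at 175, 177, 180.2 and 179 CPM against 109, 117, 116 and 121, and fell by 0.62 (SE 0.043, adjusted p = 3.4e-07), with no overlap.

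At pyruvate entry 7 of 8 genes fell, all but Mpc1, where 25.7% of all genes were called lower. Dlat, the acetyltransferase core of pyruvate dehydrogenase, was at 154, 159, 151 and 154 CPM with AdGFP and 79.8, 82.2, 79.9 and 82.7 CPM with AdMettl5, and fell by 0.93 (SE 0.04, adjusted p = 1.45e-08, the smallest of the members). Pdha1 was at 828, 842, 718 and 714 CPM against 516, 532, 528 and 512 (-0.57 ± 0.0608, adjusted p = 1.02e-05), again with no overlap. The kinases that switch this complex off fell as well: Pdk4 was at 13.5, 11.7, 15.5 and 15.6 CPM against 10.6, 12.3, 12.5 and 11.4 (-0.27 ± 0.102, adjusted p = 0.0433) with overlap, and Pdk1 and Pdk2 fell by 0.33 and 0.42. The call of Pdk4 was lost with library sizes left unscaled (-0.13, adjusted p = 0.351) and without the filter on low counts, and stood in 2 of the 8 fits with 1 library left out. Mpc2 fell by 0.49 (SE 0.0841, adjusted p = 0.000421).

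Both glycogen genes fell. Pygm was at 485, 495, 484 and 515 CPM with AdGFP and 243, 256, 238 and 267 CPM with AdMettl5 (log2 fold change -0.98 ± 0.0484, adjusted p = 2.88e-08). Gys1 was at 159, 159, 150.4 and 160.5 CPM against 105, 100.1, 99.1 and 113 (-0.59 ± 0.0501, adjusted p = 1.54e-06). The gene that breaks glycogen down and the one that builds it were thus lower together, with no overlap.

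All 11 TCA genes tested in NRVMs fell, with a median log2 fold change of -0.37 and a range from -0.64 to -0.23. Of all genes 25.7% were called lower. With library sizes left unscaled all 11 still lay below 0 and 9 passed. Suclg1 was at 187, 175, 154 and 157 CPM with AdGFP and 111, 109, 105 and 109 CPM with AdMettl5 (-0.64 ± 0.062, adjusted p = 4.9e-06). Dlst, the succinyltransferase of the oxoglutarate dehydrogenase complex, was at 325, 335, 306 and 314 CPM against 223, 223, 219 and 232 (-0.51 ± 0.0437, adjusted p = 1.66e-06), and Cs at 357, 381, 344 and 354 against 276, 286, 279 and 269 (-0.37 ± 0.0453, adjusted p = 2.91e-05). In none of the 11 did the groups overlap, where 48.4% of all genes had no overlap. The members called in every fit with 1 library left out were 31 of the 37.

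**Figure D5:**
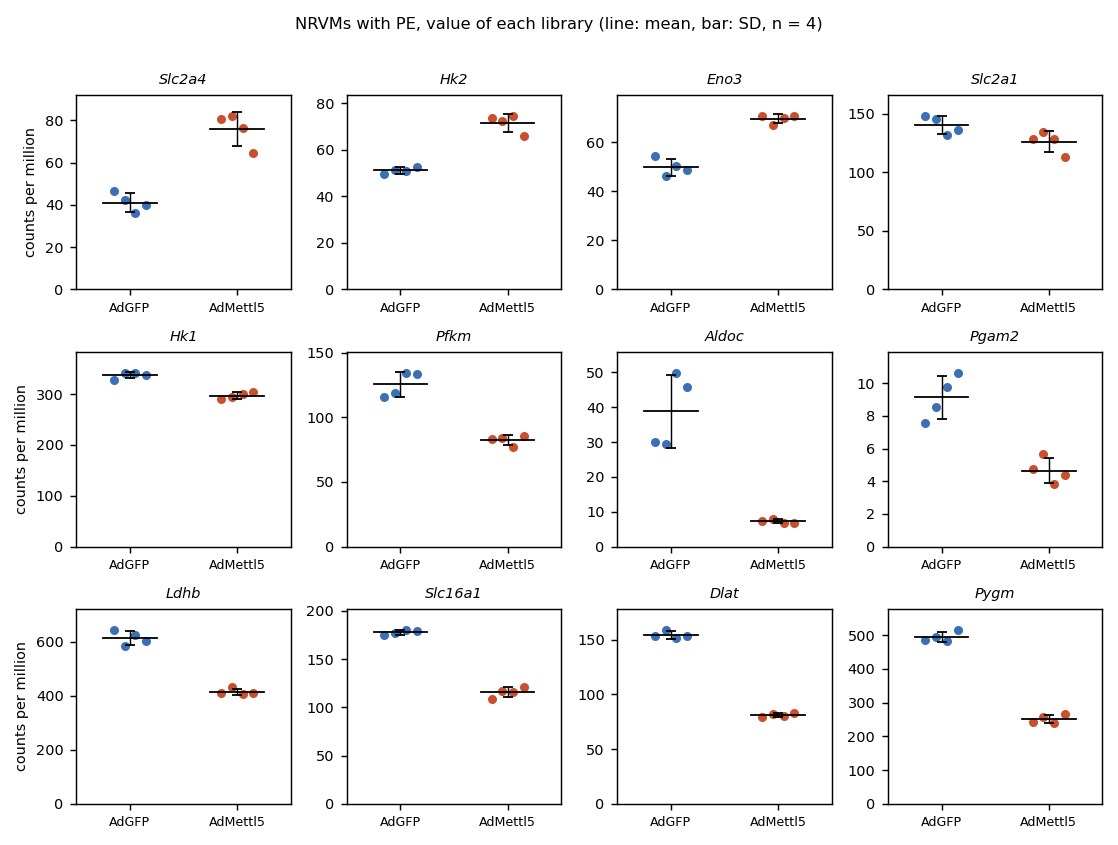
CPM (vertical axes, each starting at 0) of 12 members in the 4 AdGFP and 4 AdMettl5 NRVM libraries, with the mean and SD of each group. Slc2a4, Hk2 and Eno3 are higher with AdMettl5, Aldoc, Pgam2, Dlat and Pygm are lower without overlap, and Slc2a1 overlaps.

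Cardiomyocyte markers were also lower with AdMettl5, 8 of 8 of them, with summed levels of 31608 to 40929 CPM in AdGFP and 13686 to 15306 in AdMettl5 libraries. Fibroblast markers were lower for 5 of 6 (11501 to 12107 against 9085 to 10015 CPM), and smooth muscle markers were higher for 2 of 4. Their part in the members' changes was not tested. Isoform ratios again separated the groups. The log2 ratio of Slc2a1 to Slc2a4 was lower with AdMettl5 by 1.04 (1.78 ± 0.0806 against 0.73 ± 0.0578), that of Hk1 to Hk2 went from 2.72 ± 0.0286 to 2.06 ± 0.1, and that of Eno1 to Eno3 from 3.88 ± 0.182 to 3.32 ± 0.121. Pfkp to Pfkm and Pgam1 to Pgam2 were higher by 0.48 and 0.93. These 5 ratios did not overlap, while Ldha to Ldhb and Slc16a3 to Slc16a1 did.

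The TAC hearts and the NRVMs share no samples, and 44 members were matched between mouse and rat by symbol. Of these, 12 were called in both comparisons. Slc2a1, Hk1, Gpi1 and Pdk4 were higher in Mettl5-cKO hearts after TAC and lower in NRVMs with AdMettl5, and Slc2a4, Pfkfb1, Pfkfb2 and Eno3 were lower in the first and higher in the second. Ldhb, Mpc2, Suclg1 and Idh3b were lower in both. Opposite calls were thus 8 of 12 members (66.7%) and 541 of 994 matched genes called in both (54.4%). These counts depend on the scaling, the filter and the test. The share over all matched genes was taken in the main setting only, so the counts of other settings have none beside them. With unscaled library sizes 7 members were called in both comparisons, 2 of them in opposite directions (Pfkfb1 and Tpi1), and of the 12 above Pfkfb1, Ldhb, Mpc2 and Suclg1 were still called in both. Without the filter on low counts 4 were called in both, 3 of them in opposite directions (Gpi1, Hk1 and Pfkfb1). In DESeq2 15 were called in both, 7 in opposite directions and 8 in the same direction. There Idh3g, Pdhb, Sucla2 and Pdk2 joined those lower in both, and the NRVM call of Pfkfb1 was lost (adjusted p = 0.105). The ratios of Slc2a1 to Slc2a4, Hk1 to Hk2 and Eno1 to Eno3 differed in opposite directions in the 2 comparisons, whereas those of Pfkp to Pfkm and Pgam1 to Pgam2 were higher in both, which was read from the ratios above and not tested.

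Other genes of the same pathways, from lists of further glycolysis and pyruvate genes, TCA genes, glycogen genes, pentose phosphate genes and regulators, were read from the same fits. None passed at 1 month. After TAC, 2 of 23 further glycolysis and pyruvate genes were higher and 4 lower. Ldhd, which oxidizes D-lactate, fell by 0.80 (SE 0.118, adjusted p = 0.00782). With the same adjusted p of 0.00895, the transporter Slc2a12 fell by 1.37, the pyruvate dehydrogenase phosphatase Pdp2 by 1.03 and Phkg1, the catalytic subunit of muscle phosphorylase kinase, by 1.58. Of the TCA list 2 of 12 were lower, of the glycogen list 3 of 16 higher and 1 lower, of 8 pentose phosphate genes none passed, and of 16 regulators 2 were higher and 1 lower. Of all genes 6.57% were called higher and 6.1% lower in this comparison.

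In NRVMs, 3 of 21 further glycolysis and pyruvate genes were higher and 7 lower, and 10 of 13 further TCA genes were lower with none higher. The glycogen list held 4 of 13 higher and 5 lower, the pentose phosphate list 3 of 7 higher and 2 lower, and the regulators 5 of 15 higher and 4 lower. Myc, a transcription factor of growth, rose by 0.80 ± 0.0478 (37.3 and 65.0 CPM, adjusted p = 1.02e-07) and Prkaa1, the catalytic subunit of AMP-activated kinase, by 0.70 ± 0.0448 (adjusted p = 1.69e-07). Txnip, which restrains glucose uptake, fell by 0.98 (SE 0.0669), from 432 to 220 CPM (adjusted p = 2.96e-07). Gbe1, the glycogen branching enzyme, rose by 0.59 ± 0.0424 (adjusted p = 4.53e-07) while Pygm and Gys1 fell. The share of these lists called is to be read beside the 52.8% of all genes called in this comparison.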

How the data were processed

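Libraries were made with BGIseq protocols from RNA extracted with Trizol, and their strandedness is not given in the sources used here. Per the labels and the study's methods, the authors aligned reads with HISAT2 2.0.4 to GRCm38 or Rnor_6.0, and the tables they deposited hold estimated counts per gene from StringTie 2.1.4, all of them whole numbers, unscaled (the labels also name DESeq2 1.4.5). The tests had been planned for plain counts and were run on these values as they stand. The table of NRVMs with Mettl5 knockdown was not analysed here. Groups came from the labels. The columns at 1 month and of AdMettl5 name single samples and the others name groups, so that their library numbers only name columns. The labels do not say that libraries are separate animals or cultures, so p-values measure the spread between these libraries.

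The 4 comparisons were fitted separately with the quasi-likelihood test of edgeR 4.0.16 under R 4.3.3, after filterByExpr (minimum count 10, minimum total 15) and TMM scaling, and p-values were Benjamini-Hochberg adjusted over all genes tested. A gene was called at an adjusted p under 0.05 with no minimum fold. CPM used TMM-scaled library sizes. For single genes the mean log2 CPM was set against its values in all 70 labelings (exact permutation test, two-sided). The interaction and the control comparison came from 1 fit of 16 libraries. The script was tested on simulated counts. Alternatives were DESeq2 1.42.0, other scalings, filters and thresholds, the fit without each single library, and a replicate block for the 1-month hearts. Promoters came from RefSeq (GRCm38.p6). The motifs were chosen for general promoter elements and for factors known in heart metabolism.

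Members and lists were chosen with earlier results of these data known. Values by library are given for up to 8 called members with the smallest adjusted p per comparison and for 14 entry and branch point genes, and further pathway genes are named only at the 4 smallest adjusted p per comparison, ties included. Some genes that this rule selects are not reported here.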

Additional observations from a re-analysis of the deposited data

Results flagged for a closer look

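A library far from the 3 others of its group, by Dixon's test, was found in 8 of 132 groups of 4 libraries (14 entry and branch point genes and the called members given by library), where chance alone marks about 1 in 20. At 1 month both cases were control library 3, with Hk1 at 63.7 CPM (the other controls at 78.4 to 79.4) and Ldhb at 429 CPM (614 to 646). After TAC, control library 1 was high for Gapdh at 783 CPM (710 to 716), and control library 3 was low for Suclg1 at 198 CPM (232 to 235). Mettl5-cKO TAC library 1 was high for Ldha at 383 CPM (312 to 323). Mettl5-cKO TAC library 4, which lay nearest to the controls for many members, was high for Suclg1 at 185 CPM (144 to 146) and for Mpc2 at 152 CPM (107 to 111). In NRVMs, AdMettl5 library 2 was high for Ldhb at 431 CPM (407 to 411).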

How the results depend on the processing

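Called members after TAC went from 17 to 3 with a minimum log2 fold change of 1, to 7 without a filter on low counts, to 28 at an unadjusted p under 0.05, and to between 5 and 27 with 1 library left out. DESeq2 called 23 members there. The share of all genes called was 12.7% in the main fit, 3.5% without the filter, 16.9% in DESeq2 and 2.88% to 23.4% with 1 library left out. In NRVMs 1 of 37 passed the minimum fold, and 33 to 37 were called with 1 library left out, beside 46.4% to 50.6% of all genes. At an unadjusted p, 1 member passed at 1 month, 4 at 3 months, 18 in the interaction and 7 between control hearts. DESeq2 called 3 members in the interaction (1.24% of all genes) and 2 between control hearts (3.35%). Leaving out 1 library gave 0 to 11 and 0 to 1 (Pgam2). The highest of each came without Mettl5-cKO TAC heart 4, beside 3.91% and 1.29% of all genes. With library sizes left unscaled, 4 members turned in sign in NRVMs, 5 after TAC, 8 at 3 months and 2 at 1 month, none of them called in either setting. Among those given by library these were Ldha at 3 months (0.036), Pkm and Ogdh after TAC (0.069 and 0.053) and Pfkp in NRVMs (0.0011). Among the same members, leaving out 1 library turned at 1 month Pfkp (-0.052 to 0.11), Gapdh (-0.044 to 0.16), Ldhb (-0.054 to 0.12) and Pdk4 (-0.51 to 0.11), at 3 months Ogdh (-0.17 to 0.018), Pfkm (-0.026 to 0.075), Cs (-0.050 to 0.088), Pkm (-0.036 to 0.071), Pdha1 (-0.043 to 0.19) and Ldha (-0.071 to 0.017), and after TAC Pdha1 (-0.060 to 0.10) and Ldha (-0.0084 to 0.10). No sign change among these touched a called member. The cause of these changes was not tested. With a replicate block at 1 month 0 members were called, as without it, and samples of the same number had correlations of 0.24, 0.12, -0.11 and 0.08. With 4 libraries per group these values cannot decide whether the numbers pair the samples. No paired analysis was possible for the other tables because at least 1 group of each (AdGFP in NRVMs) has columns that carry no number of the labels. Standard errors at 3 months had a median of 0.157 over all genes on the log2 scale, and differences of that size were not detectable.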

Other observations

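In NRVMs the AdGFP libraries fell into pairs for several members, called and uncalled. Among called members, libraries 1 and 2 were at 764 and 767 CPM for Ldha and libraries 3 and 4 at 635 and 625. For Aldoc they were at 30.1 and 29.5 against 49.9 and 45.8 CPM. Summed cardiomyocyte markers were at 40738 and 40929 against 31608 and 33466 CPM. Hk1 and Dlat did not show the split. Uncalled members showed it too. Libraries 1 and 2 were at 152 and 153 CPM for Slc16a3 and libraries 3 and 4 at 90.6 and 102, and for Eno1 the same libraries were at 809 and 804 against 656 and 661. Pfkfb3 varied most within groups, at 24.7, 8.42, 23.5 and 8.49 CPM with AdGFP and 11.1, 35.8, 12.2 and 9.54 with AdMettl5. These patterns were noticed after the values were seen and have no test.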
